A study of Homo sapiens with 30 samples.

Results

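The H/ACA box small nucleolar RNAs (snoRNAs) measured on a bead array were described in 2 human lymphoma cell lines exposed to either mirror-image form of a small-molecule inhibitor. A probe was counted as an H/ACA snoRNA probe when its gene symbol was SNORA followed by a digit, which took 102 probes of 101 genes, out of 47231 probes and 20046 gene symbols on the array. Of these 102 probes, 84 passed the filter on low signal and were tested, and 18 did not.

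TMD8 and U2932 are established lines of diffuse large B-cell lymphoma of the activated B-cell-like type. YK-S and YK-R are the S and R forms of YK-4-279, a compound made to block protein interactions of ETS-family transcription factors. The S form is known as the active one, and DMSO is the solvent. The 30 arrays fell into 10 groups of 3: TMD8 under YK-S, TMD8 under YK-R, U2932 under YK-S, U2932 under YK-R and U2932 in DMSO, each at 8 h and at 4 h. No TMD8 array in DMSO was analysed here, so each TMD8 result sets one form against the other. Doses are not in the labels, nor is it stated there that arrays in the same group were grown as separate cultures, so p-values measure the spread between these arrays, which may be technical.

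H/ACA snoRNAs are short nuclear RNAs whose paired hairpins are joined by the H box and closed by the ACA box. Most guide the pseudouridine synthase dyskerin (DKC1) to chosen uridines of ribosomal RNA, in a particle with NOP10, NHP2 and GAR1. In human cells most are cut out of introns of host genes after splicing, so that a host transcript yields both an mRNA or a long noncoding RNA and the snoRNA. The labelling kit named in the labels primes cDNA at poly(A) tails, which mature snoRNAs lack, and silica columns retain short RNAs poorly. Whether a probe read mature snoRNA, its precursor or retained host intron was not tested, and the values below are therefore levels of probe signal.

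All 102 probes matched a RefSeq gene by gene ID, and 101 of the probes were of a snoRNA gene within the span of another gene. For 88 of these probes that gene was protein-coding, and for 12 it was a long noncoding RNA with no protein-coding gene. Of these 12, SNORA22 also lay in the transcribed pseudogene CCT6P1. SNORA7B lay in the transcribed pseudogene RPL32P3 only, and SNORA50C lay in no other gene. The hosts included 14 ribosomal protein genes with 17 members and 9 small nucleolar RNA host genes (SNHG) with 16 members, and 19 hosts held at least 2 members. TAF1D, a subunit of the factor that recruits RNA polymerase I to ribosomal DNA, held 6: SNORA1, SNORA8, SNORA18, SNORA25, SNORA32 and SNORA40.

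Many hosts of snoRNAs are known to begin transcription at a C followed by a run of pyrimidines, the 5′ terminal oligopyrimidine start of genes for the translation machinery. The starts of 12 hosts are shown because the direction of the line difference is set against this feature further below. Each line holds 20 bases before and 20 bases from the RefSeq start on the gene's strand, 5′ to 3′, credited to RefSeq on GRCh38.p14, and capitals mark a run of C and T that begins with C at the start base. Spelled out, the search asked for a C at the start base followed by at least 4 bases that were each C or T, read on the gene's own strand at the start position only. The first 6 hosts hold the run.
RPSA (SNORA6 and SNORA62), chr3:39406700-39406739, plus strand: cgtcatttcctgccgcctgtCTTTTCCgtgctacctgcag
EIF4A2 (SNORA4, SNORA63 and SNORA81), chr3:186783557-186783596, plus strand: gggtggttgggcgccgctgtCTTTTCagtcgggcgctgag
RPL27A (SNORA3A and SNORA3B), chr11:8682772-8682811, plus strand: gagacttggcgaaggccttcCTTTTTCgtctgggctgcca
SNHG12 (SNORA16A and SNORA61), chr1:28581854-28581893, minus strand: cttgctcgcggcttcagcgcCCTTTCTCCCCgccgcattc
TAF1D (SNORA1, SNORA8, SNORA18, SNORA25, SNORA32 and SNORA40), chr11:93741476-93741515, minus strand: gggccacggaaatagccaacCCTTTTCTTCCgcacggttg
TOMM20 (SNORA14B), chr1:235128818-235128857, minus strand: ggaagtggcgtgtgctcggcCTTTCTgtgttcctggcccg
The other 6 do not hold it at the start base.
CWF19L1 (SNORA12), chr10:100267619-100267658, minus strand: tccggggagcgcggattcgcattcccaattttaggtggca
DANCR (SNORA26), chr4:52712374-52712413, plus strand: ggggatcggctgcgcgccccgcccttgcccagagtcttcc
KHDC4 (SNORA80E), chr1:155934394-155934433, minus strand: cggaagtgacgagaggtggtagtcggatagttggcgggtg
KANSL2 (SNORA2A, SNORA2B and SNORA2C), chr12:48682219-48682258, minus strand: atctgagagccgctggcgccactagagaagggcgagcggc
EIF4A1 (SNORA48 and SNORA67), chr17:7572805-7572844, plus strand: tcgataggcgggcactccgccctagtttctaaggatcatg
SNHG8 (SNORA24), chr4:118278742-118278781, plus strand: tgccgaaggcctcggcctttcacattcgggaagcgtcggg
Of the 87 genes that hold a member, 68 had a RefSeq start window, and 20 of these 68 (29.4%) held the run. It was found in 8 of 9 ribosomal protein hosts (88.9%), 2 of 7 SNHG hosts (28.6%) and 10 of 52 other hosts (19.2%). Of all 27305 genes with a window, 1404 (5.14%) held it. No match says only that these letters are not at this start.

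The mean signal of an array, in the deposited intensity units, lay between 419.6 and 494.1 in TMD8 and between 85.4 and 340.9 in U2932. Between 79 and 87 of the 102 probes were above background (detection p under 0.05) on TMD8 arrays, and between 34 and 77 on U2932 arrays. The 8 arrays with a mean signal under 200 were all of U2932: 3 of 3 under YK-R at 4 h, 3 of 3 in DMSO at 4 h, 1 of 3 under YK-S at 4 h and 1 of 3 under YK-S at 8 h. The 2 deposited tables also gave the U2932 arrays different names: each of the 12 TMD8 names held the same array in both tables, but none of the 18 U2932 names did, and 13 of the 18 pointed to an array of another group. U2932 values below use the names of the signal table. Comparisons within U2932 were also fitted with the other table's values and names, and those results are given for some of them. Line comparisons and U2932 group levels are given with the signal table's names only. Of 5 B-cell markers measured, 4 were above background on every array in each line, and PAX5 was above background on 8 of 12 TMD8 arrays and 0 of 18 U2932 arrays. None of 4 T-cell markers was above background on all arrays of either line. Of 4 myeloid markers, CD14 was above background on 12 of 12 TMD8 and 16 of 18 U2932 arrays, and no other was on all arrays of a line. Of 5 stromal and epithelial markers, EPCAM was above background on 11 of 12 TMD8 arrays, at a mean log2 level of 4.83, and on 18 of 18 U2932 arrays, at 9.67, while KRT8 and KRT18 were on 1 or 2 arrays of each line.

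The 84 kept members spanned a wide range of levels. Their mean normalized log2 level over the 30 arrays lay between 4.45 and 9.72 with a median of 5.95, and 9 lay above 8 while 18 lay below 5, close to background. Of the 84, 63 were kept through groups of both lines, 19 through TMD8 groups only and 2 (SNORA37 and SNORA36C) through U2932 groups only, and 26 were above background on all 30 arrays. The 18 that were not kept were SNORA40, SNORA20, SNORA78, SNORA47, SNORA31, SNORA71D, SNORA2A, SNORA69, SNORA35, SNORA38, SNORA60, SNORA50A, SNORA71E, SNORA19, SNORA54, SNORA36B, SNORA36A and SNORA16B, and of these SNORA19, SNORA36B, SNORA36A and SNORA16B were above background on no array. Members of families with near-identical sequence (SNORA2, SNORA3, SNORA5, SNORA7, SNORA11, SNORA36, SNORA70, SNORA71 and SNORA73) may share signal between their probes, so their values are uncertain as those of single genes.

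The 10 brightest members were SNORA61 (mean log2 level 9.72), SNORA67 (8.87), SNORA63 (8.74), SNORA24 (8.66), SNORA62 (8.59), SNORA18 (8.56), SNORA6 (8.51), SNORA70 (8.16), SNORA25 (8.10) and SNORA41 (7.68), each above background on all 30 arrays. Levels of different probes are given side by side as a description only, since probes differ in brightness for the same amount of RNA. Their hosts included RPSA, a protein of the small ribosomal subunit, RPL10, a protein of the large subunit, EEF1B2, a translation elongation factor, and the RNA helicases EIF4A1 and EIF4A2 of translation initiation.
SNORA61, from SNHG12, was the brightest member over the 30 arrays. Its mean level in TMD8 was 9.21 ± 0.28 at 8 h and 9.50 ± 0.08 at 4 h under YK-S, and 9.46 ± 0.11 at 8 h and 9.68 ± 0.07 at 4 h under YK-R (SD, n = 3 each). In U2932 it was 10.26 ± 0.14 at 8 h and 9.84 ± 0.29 at 4 h under YK-S, 10.05 ± 0.11 at 8 h and 9.81 ± 0.18 at 4 h under YK-R, and 9.78 ± 0.34 at 8 h and 9.64 ± 0.74 at 4 h in DMSO (SD, n = 3 each). The range of its 10 group means was 1.05 on the log2 scale, near the median of 1.14 over the 84 members, whose ranges lay between 0.39 and 4.02. The widest range was that of SNORA12, whose group means lay between 9.48 ± 0.48 and 9.98 ± 0.50 in TMD8 and between 5.96 ± 0.30 and 6.78 ± 0.79 in U2932 (SD, n = 3 each).

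**Figure D1:**
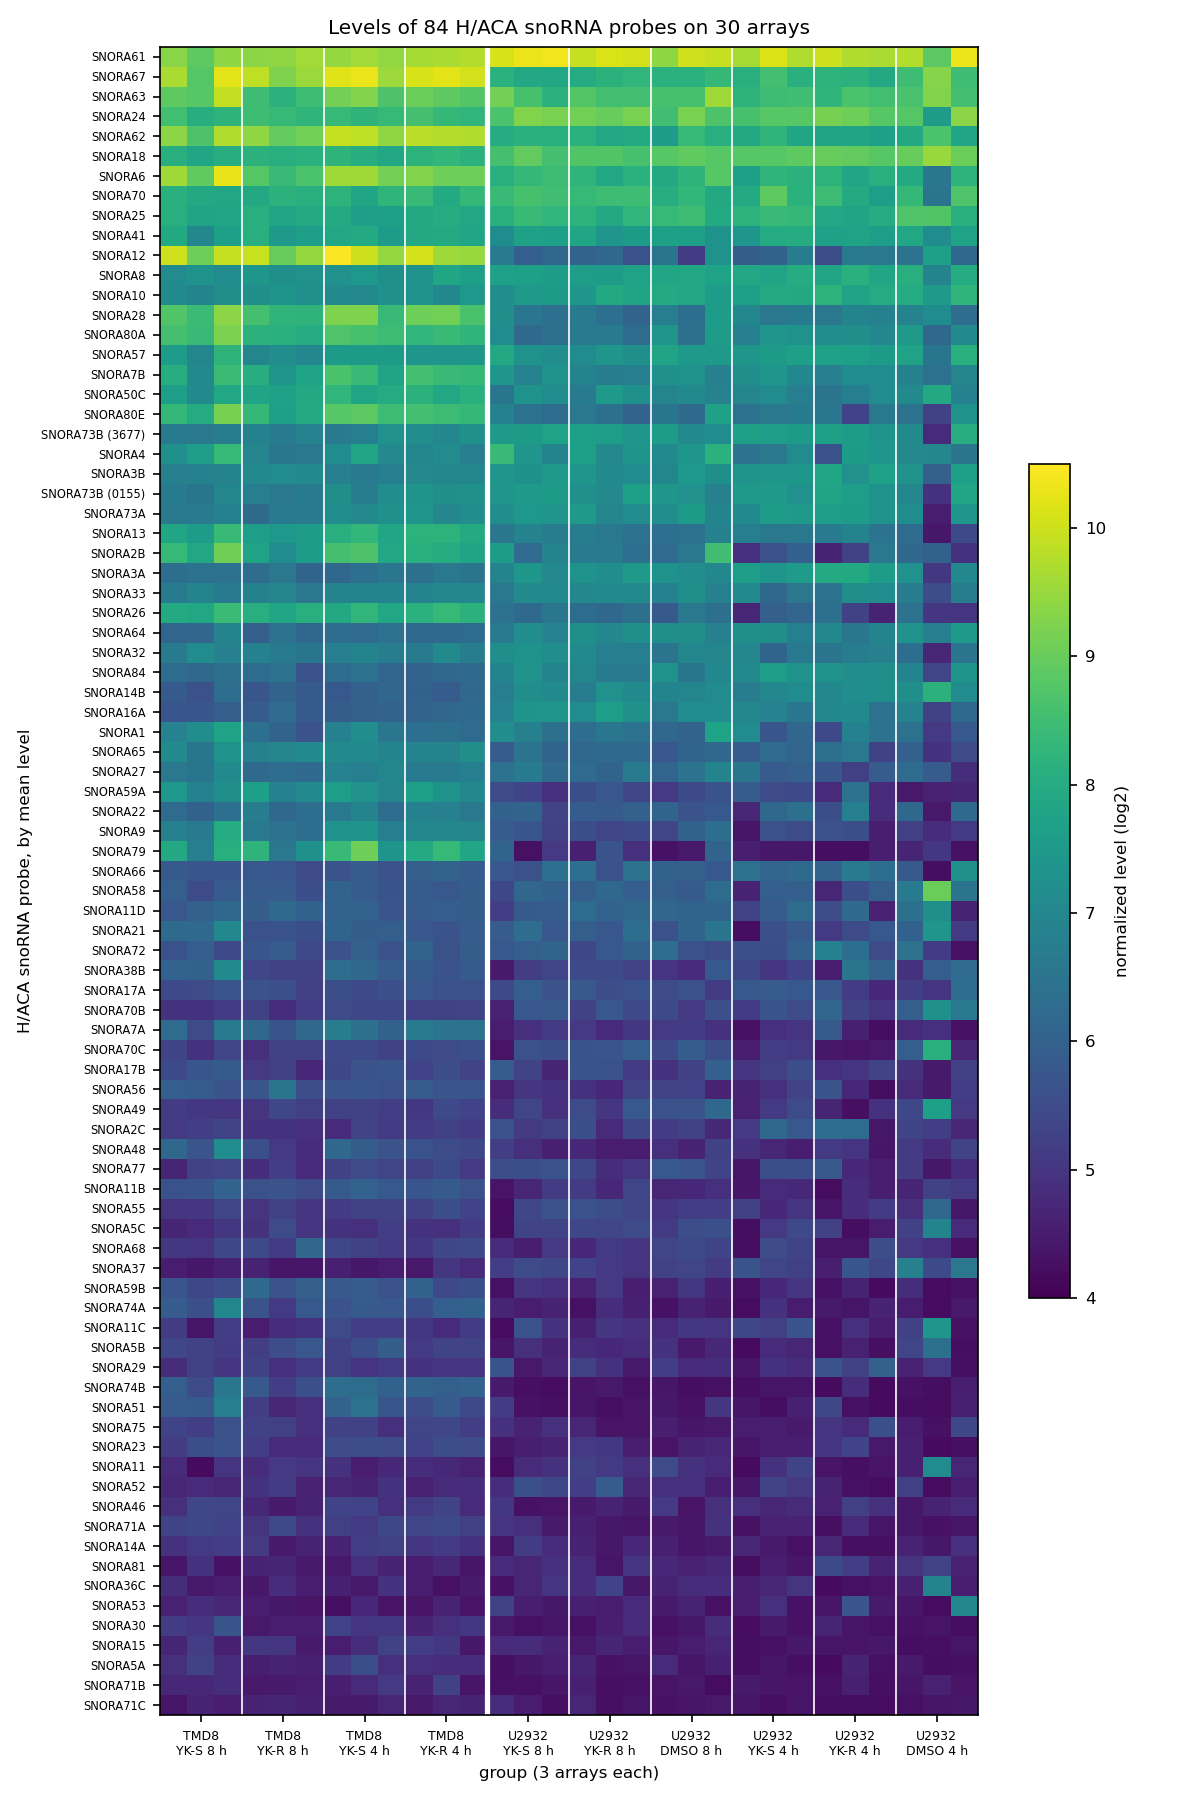
Normalized log2 level (colour) of the 84 kept H/ACA snoRNA probes (rows, brightest at the top) on each of the 30 arrays (columns, 3 per group, TMD8 left of the wide line). SNORA61 has group means between 9.21 and 10.26, and those of SNORA12 are between 9.48 and 9.98 in TMD8 and between 5.96 and 6.78 in U2932.

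The largest differences in H/ACA snoRNA signal were between the cell lines. Under compound, over both forms and times, 55 of the 84 members passed the test between the 12 TMD8 and the 12 U2932 arrays, 40 higher and 15 lower in TMD8 (limma, Benjamini-Hochberg adjusted p under 0.05 over 25382 probes). The background was high, since 52.4% of all kept probes passed, 29.5% higher and 22.9% lower. The median difference was 0.18 on the log2 scale over the members and 0.05 over all kept probes. The 2 lines differ in genotype, array brightness and everything else that came with them, and these cannot be told apart here.

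SNORA12, held by the splicing-related gene CWF19L1, differed most. Its lowest, median and highest log2 levels were 9.0, 9.74 and 10.46 on the 12 TMD8 arrays and 5.54, 6.12 and 6.74 on the 12 U2932 arrays under compound. The lines did not overlap, and the mean was 9.71 ± 0.44 in TMD8 and 6.18 ± 0.41 in U2932 (SD, n = 12 each), a difference of 3.53 (SE 0.22; limma adjusted p = 6.45e-13). SNORA79, within the general transcription factor gene GTF2A1, had 6.59, 7.95 and 9.06 in TMD8 and 4.24, 4.55 and 6.08 in U2932, where 4 of 12 arrays were above background. It was higher in TMD8 by 3.07 (SE 0.25; limma adjusted p = 6.7e-11).

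SNORA26, from the long noncoding RNA DANCR, had a lowest, median and highest level of 7.83, 8.08 and 8.43 in TMD8 and of 4.63, 6.21 and 6.55 in U2932. SNORA28, within the translation initiation factor gene EIF5, had 8.23, 8.69 and 9.38 in TMD8 and 6.07, 6.62 and 7.20 in U2932. Neither overlapped, and both were higher in TMD8, SNORA26 by 2.16 (SE 0.19) and SNORA28 by 2.12 (SE 0.16). SNORA80E (2.01, SE 0.21), SNORA59A (1.81, SE 0.16) and SNORA67 (1.69, SE 0.14) were also higher without overlap, and SNORA2B was higher by 1.94 (SE 0.25) with overlap. SNORA74B, in ATP6V0E1, was above background on 12 of 12 TMD8 arrays and not well above background on any of the 12 U2932 arrays, so it was at least 1.88-fold higher in TMD8. Its levels were 5.19, 5.99 and 6.56 in TMD8 and 4.19, 4.31 and 4.81 in U2932.

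The lower members differed less. SNORA14B, in the gene of the mitochondrial import receptor TOMM20, had 5.62, 5.95 and 6.33 in TMD8 and 6.76, 7.08 and 7.28 in U2932. SNORA16A, from SNHG12, had 5.73, 5.98 and 6.28 in TMD8 and 6.44, 7.06 and 7.65 in U2932. SNORA3A, of RPL27A, had 6.08, 6.41 and 6.61 in TMD8 and 6.92, 7.48 and 7.98 in U2932. None of the 3 overlapped between the lines. The differences were -1.09 (SE 0.11) for SNORA14B, -1.07 (SE 0.14) for SNORA16A and -1.06 (SE 0.17) for SNORA3A, but under median scaling in place of quantile normalization these 3 were 0.16, 0.16 and 0.35, with the sign turned. SNORA84 (-0.89), SNORA18 (-0.68), SNORA24 (-0.64) and SNORA61 (-0.53) were lower by less, and under median scaling these 4 were 0.44, 0.82, 0.86 and 0.90. Of the 15 members called lower, SNORA37 alone stayed below 0 under that scaling, at -0.44. SNORA37 was kept through U2932 groups only, which favours lower calls in TMD8. Of the 1680 probes kept that way, 0 were called higher and 887 lower.

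**Figure D2:**
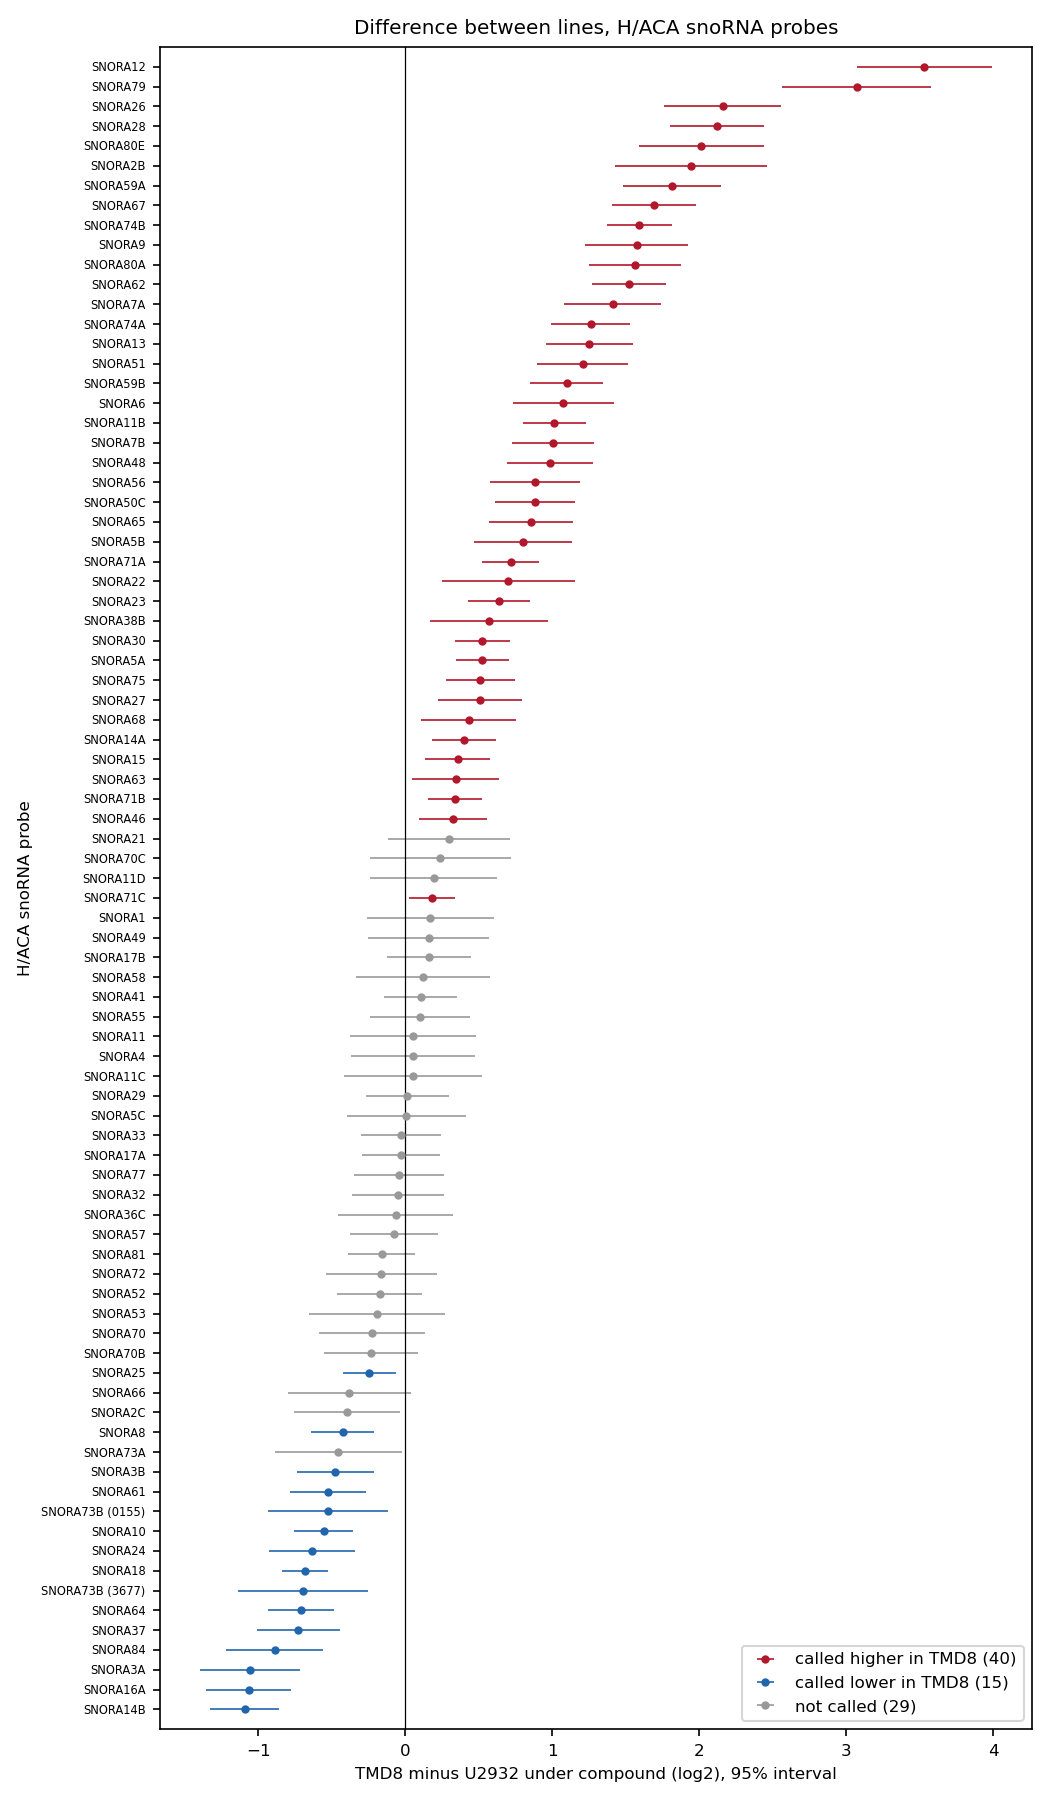
TMD8 minus U2932 log2 difference under compound for each of the 84 kept members, ordered by size, with 95% intervals. The highest is SNORA12 at 3.53 and the lowest SNORA14B at -1.09, and the negative side depends on quantile normalization, since median scaling leaves 1 member below 0 among the 15 called lower.

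The lower direction depended on array scaling. Under median scaling the median of all kept probes was itself 0.67, that of the members was 0.94, and 70 members were called higher and 1 lower. Of all 25382 kept probes, 18375 were called under that scaling. Set against that all-probe median, 33 of the 40 members called higher still lay above it and 6 of the 15 called lower lay below it. The counts also moved with the signal filter. Among the 63 members kept through groups of both lines, 24 were higher and 14 lower in TMD8 (60.3%, against 52.9% of all probes kept that way). Among the 26 above background on all 30 arrays, 8 were higher and 13 lower (80.8%, against 67.3%). All 8742 probes kept that way also leaned lower, with 2378 higher and 3504 lower. The 19 kept through TMD8 groups only entered through their signal in TMD8, which favours higher calls there. Of them 16 were called, all higher (84.2%, against 50.1% of all probes kept that way, 2280 higher and 15 lower).

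The counts changed little when the U2932 arrays in DMSO were included. With all 18 U2932 arrays averaged by group, 39 members were higher and 15 lower in TMD8. The differences of that contrast do not depend on the U2932 names. Its calls can, through the spread within groups and the filter. The share of all kept probes called in it is not given here. In the comparison under compound that share was 52.4%. Within the 8 h groups, 34 members were called under YK-S, 28 higher and 6 lower, where 24.5% of all kept probes were called. Under YK-R at 8 h 25 were called, 20 higher and 5 lower, where the background was 27.4%. Without the dim arrays, 32 members were higher and 20 lower under YK-S at 8 h, where 10014 of all 25382 kept probes were called. Under YK-R at 8 h that fit gave 26 higher and 16 lower, where 11621 of all kept probes were called. The comparisons share no arrays with each other but are parts of the comparison over both forms and times.

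Called members of the same host went the same way. Of 13 hosts with at least 2 kept members, 6 had all of them called in the same direction, none had called members in both directions and 1 had none called. RCC1 and SNHG3 were counted separately but hold the same 3 kept probes, including both of SNORA73B. The SNORA3 probes of RPL27A and the SNORA71 probes of SNHG17 are of families that may share signal, so members of a host are not independent. SNORA48 and SNORA67 of EIF4A1 were both higher in TMD8, as were SNORA6 and SNORA62 of RPSA and the 3 members of SNHG17. The pairs of RPL27A, RPS2 and SNHG12 were lower, and of the 5 kept members of TAF1D, whose differences ran from -0.68 to 0.17, 3 were lower, all under quantile normalization. KANSL2 held the widest gap of those named, with SNORA2B at 1.94 and its near copy SNORA2C at -0.40, which was not called.

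The spliced host transcript often did not move with its snoRNA. For 82 pairs of a kept member and a kept host probe, 50 had the same sign, and of 27 pairs with both called 17 had the same sign. SNORA28 was higher in TMD8 by 2.12 while its host EIF5 was lower, at -1.26 (SE 0.08), and SNORA12 was higher by 3.53 while CWF19L1 stood at -0.44 (SE 0.10). In the other direction, SNORA24 was at -0.64 and its noncoding host SNHG8 at 3.22 (SE 0.11). EIF4A1 (-0.06) and GTF2A1 (0.11) were not called, beside the higher SNORA67 and SNORA79. SNORA14B and TOMM20 (-1.09 and -1.47) and SNORA18 and TAF1D (-0.68 each) had like differences. Strand was not given in the gene table used to find hosts, so a host here is a gene whose span contains the snoRNA gene.

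Higher and lower calls between the lines were also sorted by the start of the host gene, a pattern chosen after the values were seen and given without a test. Of 28 kept members with a pyrimidine run at the host's start, 7 were higher and 10 lower in TMD8, with a median difference of -0.12 (range -1.09 to 1.52). Of 42 members whose host had a start window and no run, 24 were higher and 3 lower, with a median of 0.52 (range -0.89 to 3.53). The 14 members with no host window had 9 higher and 2 lower. Of all kept probes, 29.5% were higher and 22.9% lower. Members kept through TMD8 groups only were not taken out of these sets, and that filter favours higher calls. Its part in the pattern was not tested. The members with a run were also brighter, at a median level of 7.10 against 5.32. Among members with a mean level below 7, 4 were higher and 3 lower of 13 with a run, and 18 were higher and 2 lower of 35 without. Among those above background on all 30 arrays, 3 were higher and 9 lower of 17 with a run, and 3 were higher and 2 lower of 5 without. All 8742 probes above background on all arrays had 2378 higher and 3504 lower. The starts printed above show both sides: RPL27A, SNHG12, TAF1D and TOMM20 hold the run and their called members were lower, CWF19L1, DANCR, KHDC4 and EIF4A1 lack it and theirs were higher. RPSA, which holds the run with both members higher (SNORA62 by 1.52 and SNORA6 by 1.07), and SNHG8, which lacks it with SNORA24 lower, go the other way. EIF4A2, which holds the run, had 1 of 3 members called, SNORA63, and it was higher. Members of 1 host share its start and are not independent, and all lower calls named here rest on quantile normalization.

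**Figure D3:**
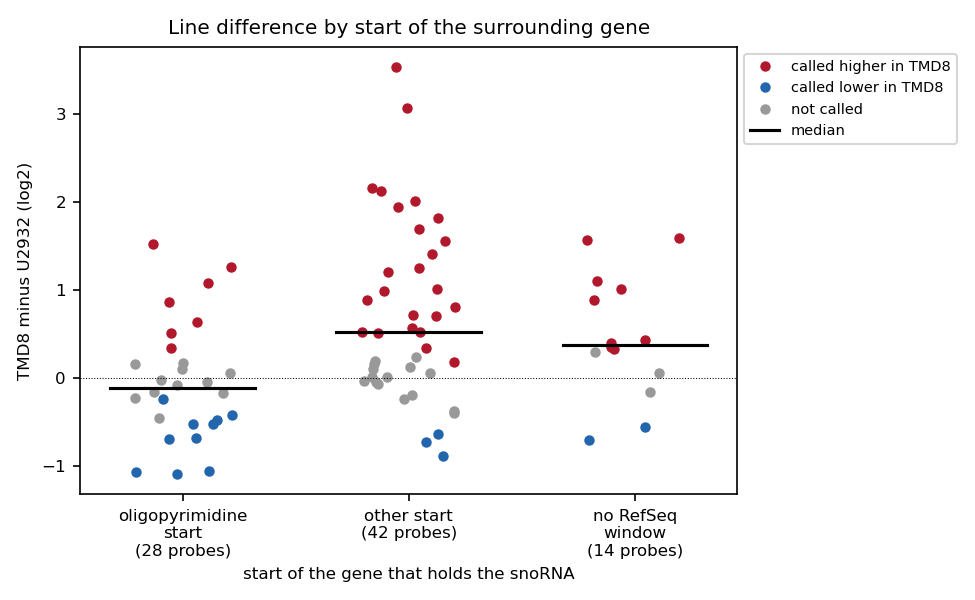
TMD8 minus U2932 log2 difference of each kept member, by whether the host gene's RefSeq start holds a C followed by at least 4 pyrimidines, with a line at the median and colour for the call. Medians are -0.12 for 28 members with the run and 0.52 for 42 without, and the ranges overlap.

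The genes of the H/ACA particle's core proteins did not pass the test between the lines. DKC1 differed by -0.13 (95% interval -0.28 to 0.03), NOP10 by 0.03 (-0.13 to 0.19), NHP2 by -0.09 (-0.29 to 0.12) and GAR1 by -0.16 (-0.35 to 0.02), and 0 of these 4 core genes were called in any comparison. Among the assembly factors, NAF1, which brings the particle together, was higher in TMD8 by 0.50 (limma adjusted p = 0.00436) and the AAA+ ATPase RUVBL1 was lower, at -0.96 (limma adjusted p = 1.42e-06). SHQ1 and RUVBL2 were not called. Of 12 stand-alone pseudouridine synthases, which act without a guide RNA, 4 were higher and 6 lower, with TRUB1 at 1.73 and PUSL1 at -0.90 the extremes. TERC, the telomerase RNA that carries an H/ACA domain, was higher in TMD8 by 1.54 (SE 0.17). Of 24 small Cajal body RNAs (SCARNA), which guide modification of spliceosomal RNAs, 18 were kept, and 12 were higher and 1 lower. Among all kept probes 29.5% were higher and 22.9% lower. SCARNA8 (2.87), SCARNA13 (2.64) and SCARNA14 (1.88) led, and SCARNA10 was at -0.49. Mean levels in U2932 were 4.70 for TERC, 4.82 for SCARNA8, 5.54 for SCARNA13 and 5.08 for SCARNA14, and levels below 5 are close to background. How these lists move with array scaling is not given here.

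In TMD8 the mirror-image forms were compared with each other at matched times. No member passed the test between YK-S and YK-R at 8 h (limma, lowest adjusted p = 0.14), where 13 of all kept probes did (0.0512%). At an unadjusted p under 0.05 there were 21 members (25%), against 6.15% of all kept probes. The difference was above 0 for 54 of the 84 members (64.3%, against 53% of all), its median was 0.09 (0.01 over all), and the median half-width of a member's 95% interval was 0.38. For 19 members every YK-S array was higher than every YK-R array and for 3 every one was lower, together 26.2%, where 8.2% of all kept probes did not overlap.

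The 5 largest of these were SNORA51, SNORA1, SNORA48, SNORA38B and SNORA4. SNORA51, in the gene of the box C/D core protein NOP56, had log2 levels of 5.87, 5.83 and 6.77 under YK-S and 5.17, 4.69 and 4.91 under YK-R. SNORA1, of TAF1D, had 6.87, 7.17 and 7.75 under YK-S and 6.37, 6.06 and 5.67 under YK-R. The third YK-S array was the highest for both, and the forms did not overlap. SNORA51 differed by 1.24 (SE 0.25, 95% interval 0.70 to 1.77; limma adjusted p = 0.204) and SNORA1 by 1.23 (SE 0.23, 0.73 to 1.73; limma adjusted p = 0.14), so neither passed.

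SNORA48, of EIF4A1, had 6.18, 5.72 and 7.17 under YK-S and 5.59, 5.09 and 4.83 under YK-R. SNORA38B, in the gene of the ribosome biogenesis factor NOL11, had 6.05, 6.01 and 7.12 under YK-S and 5.39, 5.27 and 5.27 under YK-R. SNORA4, of EIF4A2, had 7.26, 7.62 and 8.37 under YK-S and 6.96, 6.54 and 6.57 under YK-R. In all 3 the third YK-S array again stood highest, and the differences of 1.19, 1.08 and 1.06 did not pass (limma adjusted p = 0.492, 0.335 and 0.488). The 3 members that lay lower without overlap were SNORA3B, SNORA10 and SNORA18. SNORA3B had 6.83, 6.86 and 6.90 under YK-S and 7.06, 7.14 and 7.08 under YK-R, and SNORA18 had 8.10, 7.82 and 8.05 under YK-S and 8.18, 8.11 and 8.16 under YK-R.

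The third YK-S array at 8 h stood apart from its group over the members as a whole. Their median level was 6.09, 5.97 and 6.61 on the YK-S arrays and 5.90, 6.07 and 5.84 on the YK-R arrays at 8 h. Without that array the median difference was 0.001, and without the second YK-S array it was 0.20. The differences of SNORA51, SNORA1, SNORA48, SNORA38B and SNORA4 without it were 0.93, 0.99, 0.78, 0.72 and 0.75, the lowest with any array left out. Leaving out the second YK-R array at 8 h gave 2 called members, among them SNORA1 (limma adjusted p = 0.0402), and 322 called probes in all. The hosts of these snoRNAs were not called: NOP56 differed by 0.07, EIF4A1 by -0.04, NOL11 by 0.02, EIF4A2 by -0.003 and TAF1D by 0.40. Among the C/D box snoRNAs (SNORD), the other main class, which guides methylation, 12 of 103 kept probes were called in this comparison and the median was 0.30. The difference between the classes was not tested.

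**Figure D4:**
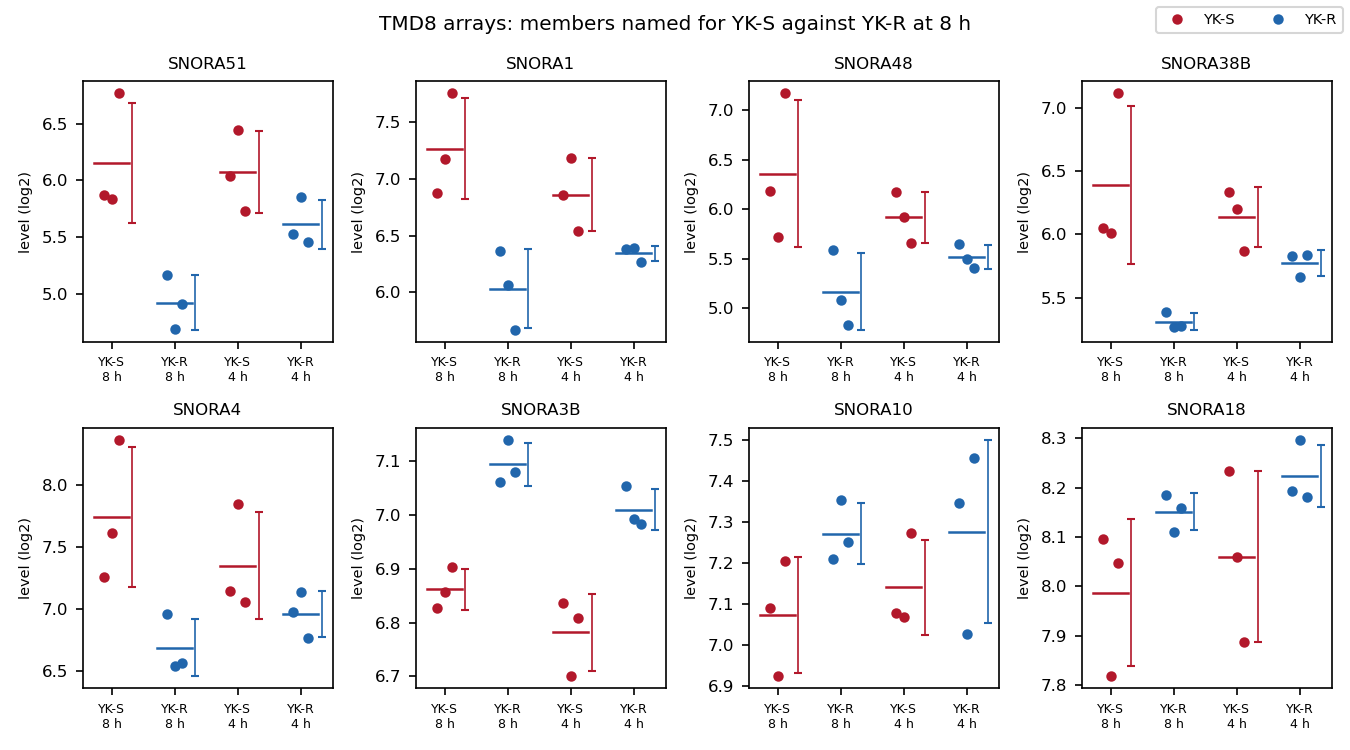
Normalized log2 levels on each TMD8 array under YK-S and YK-R at 8 h and 4 h for 8 members whose forms did not overlap at 8 h, 3 arrays per group, with the group mean as a line and the SD as a bar. At 8 h the third YK-S array is the highest for SNORA51, SNORA1, SNORA48, SNORA38B and SNORA4.

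At 4 h no member was called in TMD8 (0% of kept probes were), and 3 had an unadjusted limma p under 0.05, against 1.75% of all kept probes. The median difference was -0.004, 40 of 84 lay above 0, and 10 members were higher and 6 lower without overlap (19%, against 7.67% of all). SNORA1 had 6.85, 7.18 and 6.54 under YK-S and 6.38, 6.39 and 6.27 under YK-R at 4 h, a difference of 0.51 that did not pass. SNORA51 had 6.04, 6.45 and 5.73 under YK-S and 5.52, 5.86 and 5.46 under YK-R, with overlap. Over both times together 0 members were called and 18 had an unadjusted p under 0.05. SNORA1 had the smallest p there, at 0.87 (SE 0.16; limma adjusted p = 0.161). The 15 called probes of that comparison (0.0591%) were all of the SNORD class. For it and the later comparisons, the share of all kept probes at an unadjusted p under 0.05 is not given here. Member counts at that p thus have no background beside them.

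Between the times, members under YK-R were mostly lower at 8 h than at 4 h in TMD8. None of the 84 passed (limma, lowest adjusted p = 0.154), where 26 of all kept probes did (0.102%), and 16 had an unadjusted p under 0.05. The difference was below 0 for 70 of 84 members (83.3%, against 54.9% of all kept probes), with a median of -0.23 (-0.02 over all). The 8 h arrays all lay below the 4 h arrays for 30 members and above them for 1, SNORA3B, together 36.9%, against 14.2% of all kept probes. Leaving out any 1 array of these groups gave a median between -0.26 and -0.20.

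SNORA73A, which acts in cleavage of the ribosomal RNA precursor rather than as a modification guide, had 6.25, 6.65 and 6.69 at 8 h and 7.43, 7.0 and 7.20 at 4 h under YK-R. SNORA7B had 8.06, 7.40 and 7.77 at 8 h and 8.57, 8.41 and 8.33 at 4 h. The times did not overlap for either, and the differences were -0.68 (SE 0.15; limma adjusted p = 0.154) and -0.69 (SE 0.30; limma adjusted p = 0.505). SNORA51 differed by -0.69 (SE 0.25; limma adjusted p = 0.411). Under YK-S, SNORA73A had 6.63, 6.66 and 6.85 at 8 h and 7.18, 7.06 and 7.26 at 4 h, again without overlap.

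Under YK-S the difference between the times was nearer 0 over the members. Its median was -0.07, 52 of 84 lay below 0, 0 were called (limma, 0.0433% of all kept probes were) and 5 had an unadjusted p under 0.05. Only 1 member was higher and 5 lower without overlap (7.14%, against 10.1% of all). SNORA21, of RPL23, was the higher one, with 6.26, 6.22 and 7.03 at 8 h and 6.09, 5.93 and 5.97 at 4 h, and SNORA73A (-0.45, SE 0.15) and SNORA70B (-0.42) were among the lower. The difference between the time courses of the forms was tested and 0 members were called (0% of all kept probes), with a median of 0.13, 58 of 84 above 0 and 5 at an unadjusted limma p under 0.05. It shares its arrays with the comparisons above. The SNORD probes had medians of -0.14 under YK-R and 0.08 under YK-S between the times.

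**Figure D5:**
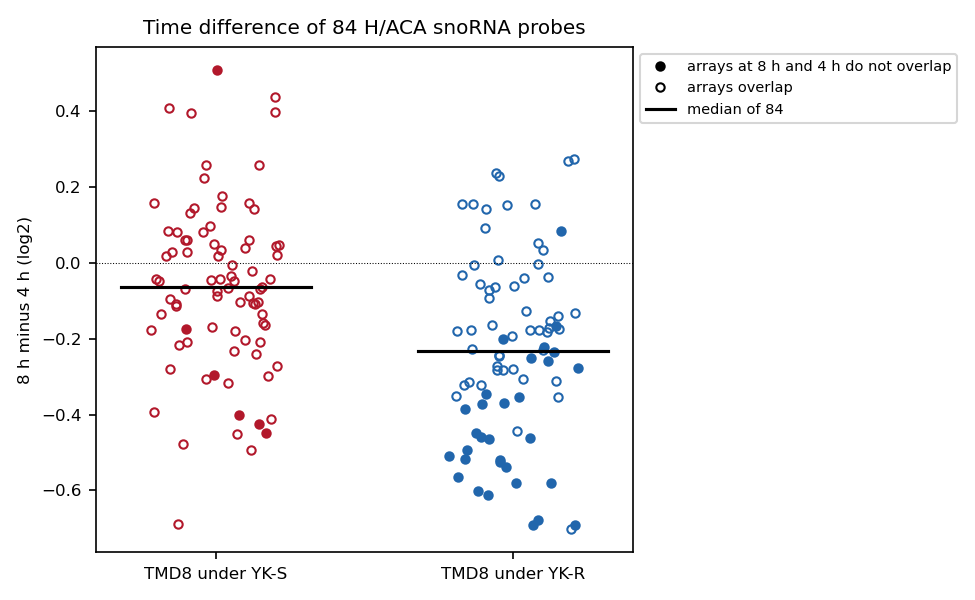
Log2 difference, 8 h minus 4 h, of each kept member in TMD8, under YK-S and under YK-R, with a line at each median; filled points are members whose 8 h and 4 h arrays do not overlap. The medians are -0.07 under YK-S and -0.23 under YK-R, and no member passed the test under either form.

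In U2932 both forms were also compared with DMSO, and these comparisons share the DMSO arrays. At 4 h no member was called for YK-S minus DMSO (limma, 0% of all kept probes), 11 had an unadjusted p under 0.05 and the median was 0.05. For YK-R minus DMSO at 4 h no member was called either (limma, lowest adjusted p = 0.0537), where 1.93% of all kept probes were, and 19 had an unadjusted p under 0.05. With the spread taken from all 30 arrays, 2 members were higher and 2 lower for YK-S (6.81% of all kept probes called) and 3 higher and 7 lower for YK-R (15.8%). All 3 DMSO and all 3 YK-R arrays at 4 h were dim, and the part of brightness in these differences was not tested.

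SNORA13, within the antisense RNA gene EPB41L4A-AS1, had 6.81, 6.61 and 6.60 under YK-S, 6.67, 6.90 and 6.48 under YK-R, and 6.28, 4.43 and 5.46 in DMSO at 4 h. SNORA3A, of the ribosomal protein gene RPL27A, had 7.61, 7.43 and 7.56 under YK-S, 7.98, 7.94 and 7.56 under YK-R, and 7.28, 5.05 and 7.04 in DMSO. SNORA58, in the mitochondrial ribosomal protein gene MRPL3, had 4.65, 5.94 and 5.96 under YK-S, 4.69, 5.57 and 5.97 under YK-R, and 6.65, 9.03 and 6.5 in DMSO. The DMSO arrays did not overlap those of either form for these 3 members, and the second DMSO array was the farthest from them in each.

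SNORA13 differed from DMSO by 1.29 under either form (limma adjusted p = 0.104 under YK-S and 0.0537 under YK-R), and SNORA3A by 1.07 and 1.37 (limma adjusted p = 0.217 and 0.083). SNORA58 differed by -1.87 under YK-S and -1.98 under YK-R (limma adjusted p = 0.131 and 0.0681). SNORA70C (-1.84) and SNORA49 (-1.43) were the next lowest under YK-R. Leaving out replicate 1, 2 or 3 of DMSO at 4 h gave 6, 1 and 21 called members for YK-R minus DMSO, and leaving out replicate 1 or 3 gave 4 and 7 for YK-S minus DMSO. How many of all kept probes were called in those fits is not given here, so these counts have no background beside them. With the values and names of the other deposited table, the YK-R differences of SNORA13, SNORA3A and SNORA58 were -0.16, -0.35 and 0.51, each with the opposite sign, and those of YK-S were 0.06, 0.07 and -0.02. With those values 0 members were called for YK-S and 1 for YK-R, where 363 of all 25382 kept probes were called. Values and names changed together in this alternative, and their parts were not told apart.

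At 8 h the U2932 groups were closer together. For YK-S minus DMSO, YK-R minus DMSO and YK-S minus YK-R, 0 members were called by limma (0% of all kept probes in each) and 0 had an unadjusted p under 0.05. The medians were -0.02, 0.01 and 0.03, with a median half-width of a member's unadjusted 95% interval of 0.71. This half-width is not the detection limit of the adjusted test. In simulated data for YK-S minus DMSO at 8 h, 22% of log2 changes of 1 and 71% of changes of 2 were recovered. Differences of log2 size 1 or less would thus mostly not have been called in that comparison. SNORA58 had 5.42, 6.13 and 6.01 under YK-S, 5.96, 6.19 and 5.95 under YK-R, and 5.97, 5.84 and 6.29 in DMSO at 8 h, with the 3 groups overlapping. SNORA13 likewise overlapped, with 6.55, 6.91 and 6.72 under YK-S, 6.72, 6.61 and 6.45 under YK-R, and 6.36, 6.43 and 6.85 in DMSO. For YK-S minus YK-R at 4 h 0 members were called (limma, 0% of all kept probes) and 3 had an unadjusted p under 0.05. With the other table's values and names the counts called in these 4 comparisons were 0 as well, with medians between -0.01 and 0.04.

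Between the times in U2932, no member passed in any of the 3 treatments (limma). In DMSO 0.0552% of all kept probes were called, 12 members had an unadjusted p under 0.05 and the median of 8 h minus 4 h was 0.15. SNORA2B (1.40), SNORA13 (1.16) and SNORA58 (-1.36) differed most among those without overlap, and they share the dim 4 h DMSO arrays described above. With the spread from all 30 arrays 1 member was higher and 2 lower at 8 h, against 4.87% of all kept probes. Under YK-S (median 0.05) 2 members had an unadjusted p under 0.05, and under YK-R (median 0.11) there were 6, among them SNORA70C at 1.38 with 5.69, 5.72 and 5.94 at 8 h and 4.43, 4.33 and 4.44 at 4 h. No probe was called in either comparison (0%). With the other table's values and names SNORA70C stood at -0.34 between the times under YK-R.

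The lines were also compared for how the forms differed. In 4 tests of such differences, the line by form contrasts at 4 h and 8 h and the form by time contrasts within each line, 0 members and 0% of all kept probes were called. At an unadjusted limma p under 0.05 there were between 3 and 6 members in each. The line by form contrasts and the U2932 form by time contrast rest on the U2932 names.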

How the data were processed

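Per the labels' protocols, total RNA was column-purified, checked for integrity, amplified to biotin-labelled cRNA and hybridised to Illumina bead arrays. The submitters' processing notes name GenomeStudio, with a version not given in the sources used here. The authors deposited a table of bead intensities with detection p-values for each probe, and a table of log2 values whose normalization is not stated. The intensity table was used throughout and the deposited log2 table as an alternative.

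Background, taken from the peak of each array's intensity distribution, was removed by a normal-exponential model, 16 was added, and values were quantile-normalized over 30 arrays and logged to base 2. A probe was kept if every array of some group had a detection p under 0.05 for it. Contrasts of group means were fitted with limma 3.58.1 in R 4.3.3, TMD8 comparisons on 12 arrays, U2932 on 18 and line comparisons on 30, two-sided, with Benjamini-Hochberg adjustment over 25382 probes. A call is an adjusted p under 0.05. The scripts were tested on simulated data. The number of arrays limits the precision.

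Of the 47231 probes, 30113 have 1 gene symbol, 8 several and 17110 none in the platform annotation, and 30074 of the named ones matched the RefSeq gene table by ID. Start windows were read with Python 3.11.15 and pandas 2.3.3. The members, lists and tests were chosen with earlier results of these data known. Members named are the 10 brightest, called members or the 10 of smallest p, the 5 largest non-overlapping each way in treatment comparisons and the 3 largest each way in time and line comparisons. Other members given with a value, such as SNORA2B and SNORA84 between the lines, were chosen after their values were seen. The alternatives were another spread, line-wise normalization, other background corrections, median scaling, other filters, the brightest probe per gene, the deposited log2 table with its names, leaving out dim arrays and leaving out each array.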

Additional observations from a re-analysis of the deposited data

How the results depend on the processing

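No paired analysis was possible because the labels give no replicate numbers. Counts of called members changed in 8 comparisons. For YK-S minus YK-R at 8 h in TMD8, median scaling gave 1, and leaving out an array gave 0 to 2. For U2932 at 4 h, the spread of all 30 arrays gave 4 for YK-S minus DMSO (0 to 7 with an array left out) and 10 for YK-R minus DMSO (0 to 21), where the deposited log2 table gave 1. In that last fit 363 of all kept probes were called. All-probe counts of the U2932 fits with an array left out are not given here. For 8 h minus 4 h in U2932 DMSO, the 30-array spread gave 3, median scaling 25 and leaving out an array 0 to 3. Median scaling called 8243 of all 25382 kept probes there, with an all-probe median of 0.64. Under YK-R the same time difference gave 43 with median scaling and 3 with the deposited log2 table. Of all kept probes, 11985 were called with median scaling, where their median was 0.83, and 1082 with the deposited log2 table. For the lines under compound, probes above background on all arrays gave 21 of 26, and leaving out an array 52 to 56. For the lines at 8 h that filter gave 11 under YK-S and 14 under YK-R, the fit without dim arrays 52 and 42, and leaving out an array 27 to 30 and 19 to 22. Under median scaling SNORA14B (0.16), SNORA16A (0.16) and SNORA3A (0.35) turned in the line comparison and SNORA61 (0.0235) in that under YK-S at 8 h. The cause was not tested. For the 13 members that the naming rule took from the line comparison, 407 of 410 values over 32 settings kept direction and call, the exceptions being the first 3 of these. The rule picks by p and size in this same comparison, so this count does not speak for the other members. Of all 15 members called lower between the lines, 1 stayed below 0 under median scaling, SNORA37, which was kept through U2932 groups only. The fit without dim arrays gave no value where DMSO or YK-R at 4 h enters. Dim arrays limit what U2932 comparisons at 4 h can show.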
